A study of Homo sapiens with 4 samples.

Results

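The genes described here are 60 genes of mitosis and the spindle checkpoint, taken from a list of gene symbols, and they were followed in RNA-Seq of HGC-27, an established gastric carcinoma cell line. All 60 symbols were matched among 63568 gene identifiers, and all 60 had enough counts to be tested among 21932 genes. The cells had been infected with lentivirus carrying either a scrambled control shRNA or an shRNA against USP47, a deubiquitinase that removes ubiquitin from other proteins, and the comparison asks which cellular pathways respond to loss of USP47. Each group held 2 libraries of polyadenylated RNA, called replicate 1 and replicate 2, and the labels describe them as biological duplicates without saying whether they came from separate infections or whether both USP47 shRNA libraries carried the same shRNA. The p-values therefore measure the spread between these libraries only, with the spread of each gene drawn towards a trend over all genes tested. The study's methods speak of triplicate extractions, and 2 libraries of each group were analysed here. The design text of the series also speaks of control cells given DMSO, without saying for which assay. No time after infection was given in the sources used here.

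Mitosis opens when the kinase CDK1 joins its cyclins and is released by CDC25 phosphatases. Polo and Aurora kinases then build the spindle, kinesins move along its microtubules, condensins and topoisomerase compact the chromosomes, and kinetochores tie them to the spindle. The spindle checkpoint holds the anaphase-promoting complex back until every kinetochore is attached, after which separase opens the cohesin rings and the central spindle guides cytokinesis. Many of these genes are transcribed in G2 and mitosis and are low in resting cells, and in gastric cancer, as in other tumors, their mRNAs mark dividing cells. In bulk RNA, fewer cells in mitosis and less RNA per mitotic cell cannot be told apart.

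The promoters are shown first because they are what most members share and the list did not use. A pair of words is typical of genes expressed in G2 and mitosis: the cell cycle genes homology region (CHR, searched as TTTGAA or TTCGAA) and the CCAAT box, and the E2F words GGCGGGAA and TTTGGCGC were searched beside them. Searches used both strands of the RefSeq window from 250 bases before to 50 bases after the annotated start (GRCh38.p14), and a promoter was found for 51 of the 60 members. The CHR word lay in 40 of the 51 member promoters (78.4%), against 16.4% of all 35093 promoters of the same length and 11.8% of those of genes tested here. CCAAT lay in 39 (76.5%), against 34.6% of all promoters. Both lay in 32 (62.7%), against 6.37%. An E2F word lay in 4 (7.84%), against 3.78% of all promoters and 5.85% of those of genes tested. The CHR words of the members sat close to the start, with a median position of -26, and 38 of 53 (71.7%) lay between -60 and 50, against 28.5% of the CHR words of the genes tested. These matches are descriptions of letters, not of bound sites.

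The stretch from -140 to 30, counted from 1 at the annotated start, is printed for 5 members whose mRNA fell with USP47 shRNA (BUB1, CENPA, KIF18B, KIF23 and NUSAP1). It is also printed for 2 that did not pass the test (CDC20 and PLK1). Each printed stretch holds both a CHR and a CCAAT word, so this choice does not show how often either set carries them. Of the other members that fell, CDC25B, KIF20A and NCAPH held no CHR word in the searched window. For CDK1 both words lay outside the stretch, at -161 and -150, and AURKA had no promoter. CHR and CCAAT words are in capitals, on either strand, and each sequence is read 5′ to 3′ along its gene. In GRCh38.p14 they are BUB1 at chr2:110678034-110678203 on the minus strand, CENPA at chr2:26785916-26786085 on the plus strand, KIF18B at chr17:44947744-44947913 on the minus strand, and on the plus strand KIF23 at chr15:69414209-69414378, NUSAP1 at chr15:41332741-41332910, CDC20 at chr1:43358841-43359010 and PLK1 at chr16:23678749-23678918.
BUB1: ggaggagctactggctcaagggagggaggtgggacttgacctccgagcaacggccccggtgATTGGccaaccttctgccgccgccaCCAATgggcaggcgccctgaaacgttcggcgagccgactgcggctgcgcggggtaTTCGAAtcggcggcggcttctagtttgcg
CENPA: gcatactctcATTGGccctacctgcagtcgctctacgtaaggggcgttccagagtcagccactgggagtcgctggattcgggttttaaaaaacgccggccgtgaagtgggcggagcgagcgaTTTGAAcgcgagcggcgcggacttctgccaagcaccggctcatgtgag
KIF18B: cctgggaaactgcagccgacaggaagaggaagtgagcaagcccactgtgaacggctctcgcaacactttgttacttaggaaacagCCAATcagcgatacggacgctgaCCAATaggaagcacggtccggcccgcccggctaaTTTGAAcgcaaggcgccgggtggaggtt
KIF23: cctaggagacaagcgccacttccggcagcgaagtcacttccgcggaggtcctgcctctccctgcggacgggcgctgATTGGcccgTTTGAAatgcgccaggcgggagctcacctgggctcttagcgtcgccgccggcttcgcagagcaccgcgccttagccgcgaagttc
NUSAP1: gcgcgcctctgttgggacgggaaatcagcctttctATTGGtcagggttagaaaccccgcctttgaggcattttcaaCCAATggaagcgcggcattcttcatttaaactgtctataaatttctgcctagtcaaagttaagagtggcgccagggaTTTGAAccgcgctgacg
CDC20: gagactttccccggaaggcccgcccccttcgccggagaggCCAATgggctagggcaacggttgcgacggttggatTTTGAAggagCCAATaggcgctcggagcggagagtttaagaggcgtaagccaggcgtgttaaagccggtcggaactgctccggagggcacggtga
PLK1: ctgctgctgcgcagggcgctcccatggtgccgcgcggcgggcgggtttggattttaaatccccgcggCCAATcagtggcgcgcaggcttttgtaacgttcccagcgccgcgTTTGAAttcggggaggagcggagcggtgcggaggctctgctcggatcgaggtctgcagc

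Total counts on genes ranged from 15649899 to 20140273 per library. USP47 itself measured 80.0 and 66.1 CPM (counts scaled by TMM to a common library size) with control shRNA, against 36.0 and 21.5 after knockdown, so that replicate 1 kept 49.3% and replicate 2 kept 29.5% of the control mean, although 41.4% of its exon bases are shared with DKK3 on the other strand and the counting may not have used strand. As a check of the cell type, the epithelial markers were low. KRT18 and KRT19 had 0 or 1 counts in every library, ESRP1 and GRHL2 1 to 5 and EPCAM 3 to 12. KRT8 had 10 to 19, CDH1 8 to 28 and CLDN4 41 to 77. Markers of endothelium and leukocytes were near 0. The fibroblast markers were uneven, with COL3A1 at 28733 to 37030 counts and COL1A1 at 9021 to 18883. DCN, LUM and PDGFRA had 488 to 3822 counts, COL1A2 had 214 to 803 and PDGFRB had 35 to 177. The summed level of the 8 epithelial markers was 4.42 to 6.42 CPM, and that of the 7 fibroblast markers 2972 and 3025 CPM in the controls and 2528.5 and 3456 with USP47 shRNA. Of the 14 markers with enough counts to be tested 5 fell (COL1A1, COL1A2, PDGFRA, PDGFRB and EPCAM) and 0 rose. Of all genes tested 9.56% fell and 6.52% rose. Their part in the changes of the members was not tested.

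All 60 members lay in the upper part of the expressed genes. Counts ranged from 170 to 10648 per library, and each had a mean above 4.61 TPM (transcript level per length of gene, scaled alike in each library), the median of the genes tested. CDC20, the activator of the anaphase-promoting complex, was highest with 136 TPM, followed by TPX2 with 82.2, NCAPD2 with 81.9, TOP2A with 81.3 and MYBL2 with 75.1. CKAP2L was lowest with 5.21 TPM. For 21 members some exon bases are shared with a gene on the other strand, and for 3 of them (NCAPG, PRC1 and SMC4) over 20% are. If strand was not used, the shared bases could affect the counts of these genes in a direction that the sources do not give.

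With USP47 shRNA, 10 of the 60 members fell and 0 rose at an adjusted p under 0.05 (quasi-likelihood test of edgeR, Benjamini-Hochberg adjusted over all genes tested). An unadjusted p under 0.05 in the same test was reached by 21 members (35.0%), all with a fitted change below 0. Among all genes tested 32.1% reached it, counting both directions. The 10 fallen members were 16.7% of the list, against 9.56% of all genes tested that fell and 6.52% that rose. They were KIF23, NUSAP1, BUB1, AURKA, CDK1, CENPA, CDC25B, KIF18B, NCAPH and KIF20A, with fitted log2 fold changes from -0.75 to -0.42, or 59.3% to 74.7% of the control level. The fitted change was below 0 for 52 members, and its median was -0.35 over the members against -0.01 over all genes tested. The count depended on single libraries. Without control replicate 1 it was 0 (background 3.86%), without control replicate 2 it was 5 (4.42%), without USP47 shRNA replicate 1 it was 39 (15.4%) and without USP47 shRNA replicate 2 it was 15 (15.0%), where the lone library of a group is assumed to vary like the other group. All 10 fallen members stayed below 0 in each of these fits. For each of the 10 both USP47 shRNA libraries lay below both controls, so leaving out a library could hardly change the sign.

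**Figure D1:**
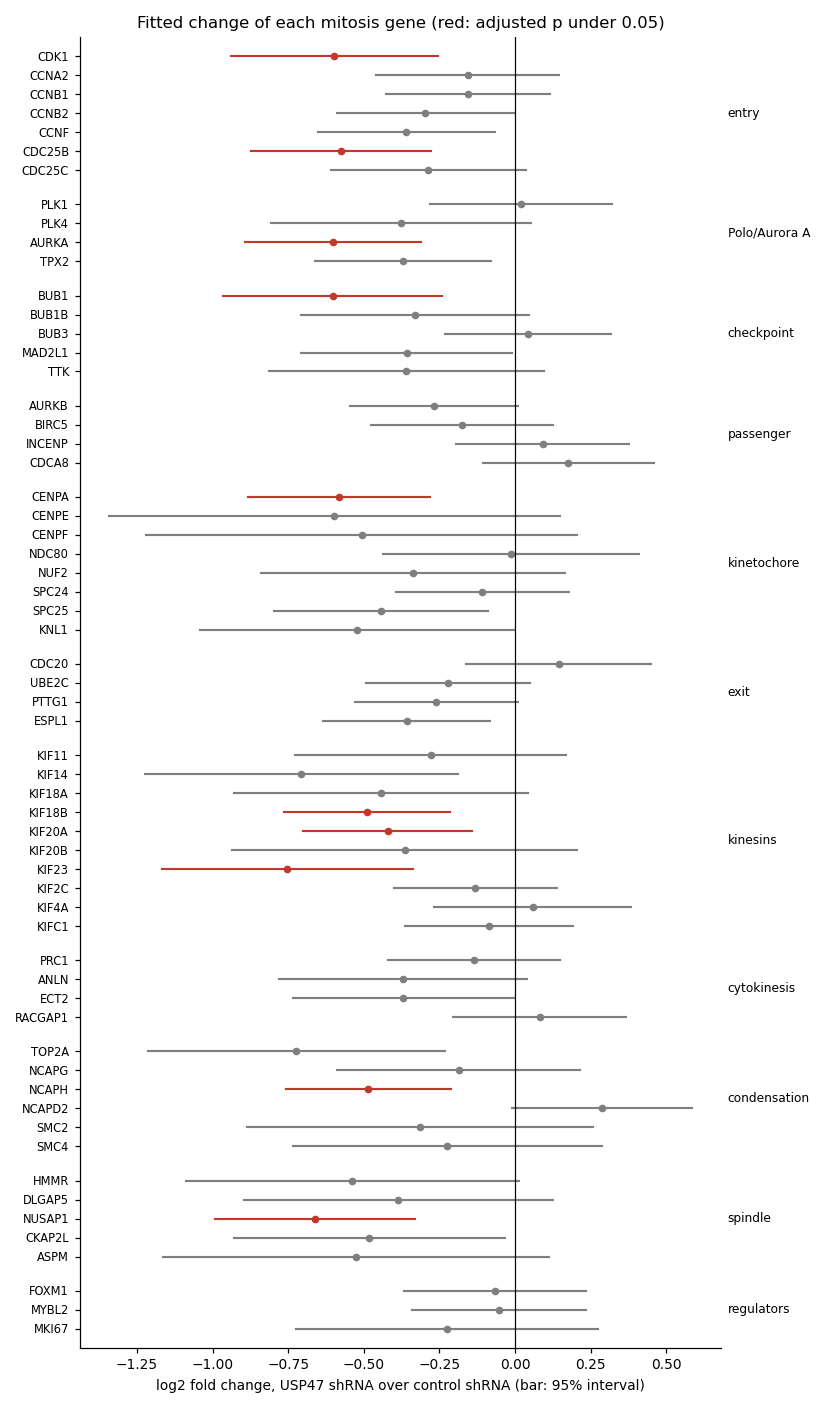
Fitted log2 fold change (x axis, USP47 shRNA over control shRNA) of each of the 60 members, grouped by role, with bars for 95% intervals and red for an adjusted p under 0.05. The 10 red genes lie between -0.75 and -0.42, and NCAPD2 is the farthest to the right at 0.29.

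The libraries themselves showed a broad but uneven shift. Both USP47 shRNA libraries lay below both control libraries for 34 members (56.7%, against 31.7% of all genes tested), and above both for 2 members, NCAPD2 and CDCA8 (29.3% of all genes tested lay above). The median member was at -0.12 on the log2 scale relative to the control mean in USP47 shRNA replicate 1 and at -0.52 in replicate 2. Replicate 2 was the lower of the pair for 46 of the 60 members, against 10281 of the 21932 genes tested. It lay below both controls for 49 members, while replicate 1 did so for 37. These counts of a single library below both controls were not taken over all genes. USP47 shRNA replicate 2 is also the library with less USP47 mRNA and the smallest total count. Its composition differed too. Copies of 7SL RNA, an abundant RNA, held 9.72% of its counts, against 7.11% to 8.74% in the other libraries. Its TMM scaling factor was the lowest, at 0.919. With 7SL and other abundant RNAs left out of the fit, 11 members fell and 0 rose (background 9.79% lower and 6.70% higher). The cause of the lower levels in this library was not tested. Summed over the members, expression was 6986 and 6547 CPM in the controls and 6315 and 4960 in the USP47 shRNA libraries.

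**Figure D2:**
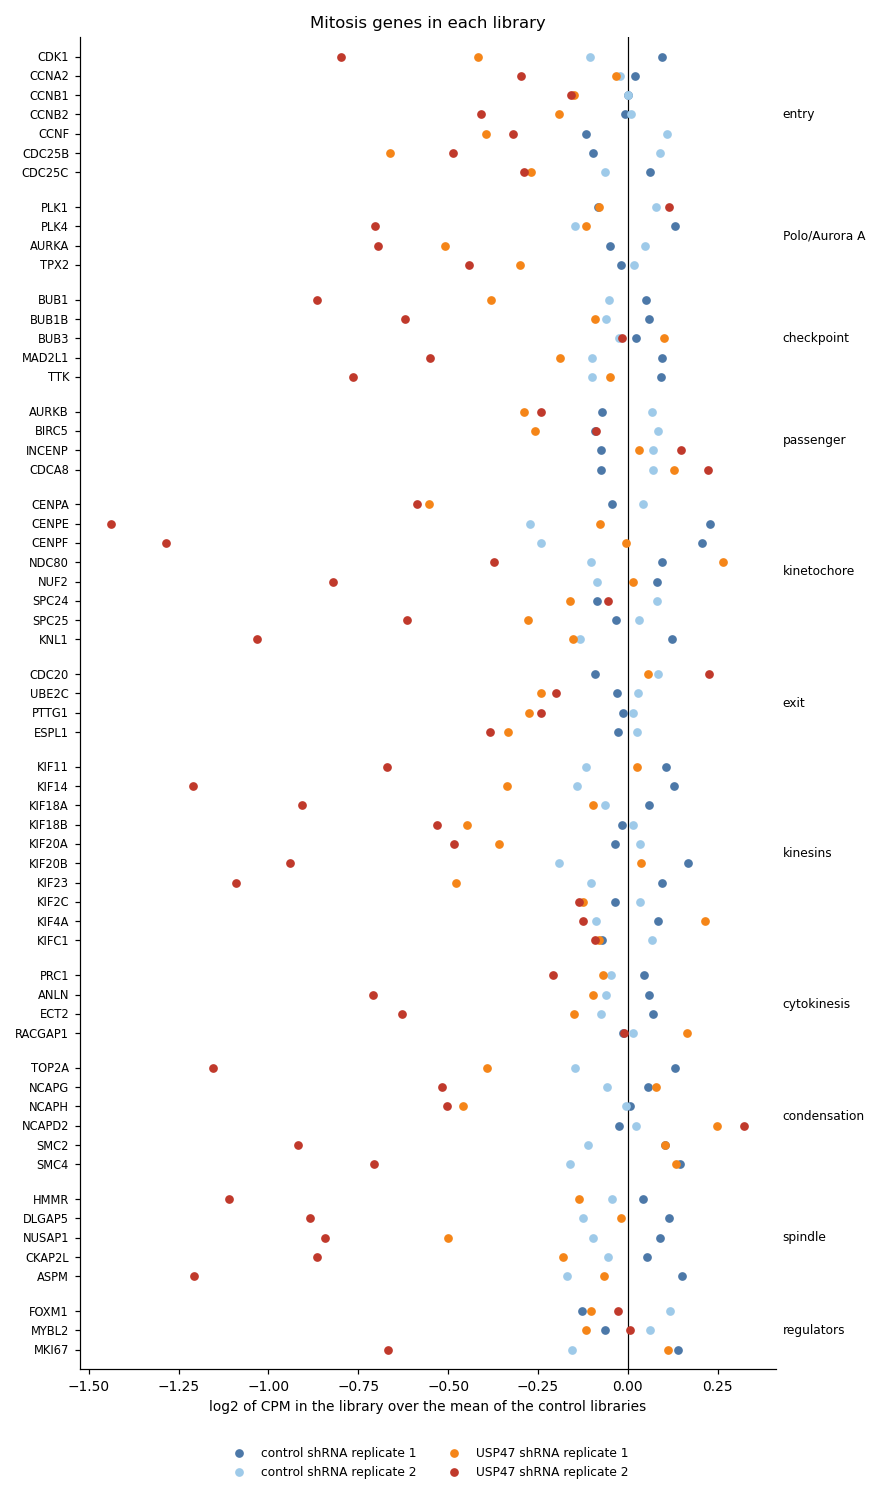
Level of each of the 60 members in each of the 4 libraries as log2 of CPM over the mean of the control libraries (x axis), grouped by role, with 1 point per library. The points of USP47 shRNA replicate 2 reach farthest left, with a median of -0.52, and those of replicate 1 have a median of -0.12.

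The spread between replicates of a group followed the base composition of the transcripts. Across the 60 members, the log2 ratio of USP47 shRNA replicate 2 over replicate 1 had a Spearman correlation of 0.87 with the GC content of the longest transcript, and the ratio of control replicate 2 over replicate 1 had one of 0.81. Over 21203 genes the values were 0.42 and 0.29. These are correlations across genes, which share the libraries and their depth and are not independent replicates. CENPE, a long kinesin of the kinetochore with 35.4% GC, was the extreme case, at 78.7 and 55.5 CPM in the controls and 63.6 and 24.5 with USP47 shRNA. In the 30 members with lower GC content the median was -0.09 in USP47 shRNA replicate 1 and -0.81 in replicate 2, and 3 were called lower. In the 30 with higher GC content the medians were -0.22 and -0.22, and 7 were called lower. The calls did not follow the size of the fitted change. Its median was -0.37 at lower GC content, with a median standard error of 0.20, and -0.22 at higher GC content, with 0.13. When the GC trend of each library was removed, an alternative chosen after seeing the data, 18 members fell and 0 rose (background 13.0% lower), among them all 10 above, together with AURKB, CCNF, ESPL1, KIF14, PTTG1, SPC25, TOP2A and TPX2. The median of the members was then -0.31.

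**Figure D3:**
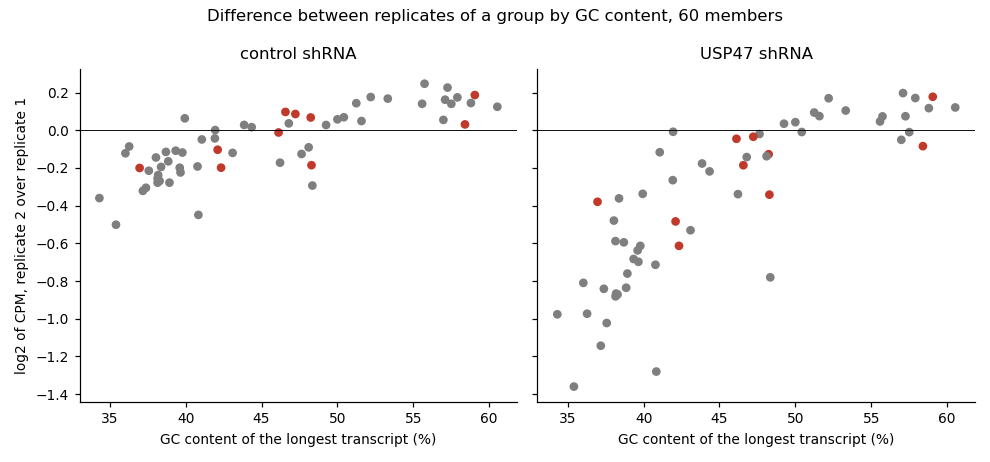
Log2 ratio of CPM in replicate 2 over replicate 1 (y axis) by GC content of the longest transcript (x axis, %) for the 60 members, in the control shRNA group on the left and the USP47 shRNA group on the right, with the 10 called members in red. The 30 members with lower GC content have a median below 0 in both groups, -0.20 with control shRNA and -0.69 with USP47 shRNA. In the USP47 shRNA group CENPE is at -1.36.

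Of the 7 genes of mitotic entry, 2 fell and both USP47 shRNA libraries were below both controls for all 7. CDK1, the kinase that drives entry (GRCh37 chr10:62538089-62554610), was at 72.8 and 63.3 CPM in the controls and 50.8 and 38.9 with USP47 shRNA. Its log2 fold change was -0.60 ± 0.15 (SE, n = 2 libraries per group; edgeR's quasi-likelihood adjusted p = 0.028). CDC25B, a phosphatase that activates CDK1 (GRCh37 chr20:3767419-3786768), was at 84.5 and 96.3 CPM in the controls and 56.9 and 64.4 with USP47 shRNA, and here replicate 1 was the lower library (log2 fold change -0.58 ± 0.13, adjusted p = 0.018). The cyclin partners of CDK1 did not pass the test. CCNB1, with the highest TPM of the group, was at 130.5 and 130.5 CPM in the controls and 117.5 and 116.8 with USP47 shRNA, a difference of -0.16 on the log2 scale with a 95% interval from -0.43 to 0.12. Values for the others were -0.16 for CCNA2, -0.30 for CCNB2, -0.36 for CCNF and -0.29 for CDC25C.

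Among the Polo and Aurora A kinases and their partner TPX2, 1 of 4 fell. AURKA, which matures centrosomes and spindle poles (GRCh37 chr20:54944445-54967393), was at 54.3 and 58.1 CPM in the controls and 39.4 and 34.6 with USP47 shRNA, with both knockdown libraries well below the controls. Its log2 fold change was -0.60 ± 0.13 (adjusted p = 0.014). TPX2, which activates Aurora A on spindle microtubules, was at 248 and 255 CPM against 204 and 185, without overlap, but did not pass (-0.37, adjusted p = 0.081). PLK1, the main Polo kinase, was at 138.1 and 154.5 CPM against 138.3 and 158.6, with overlapping groups, a log2 fold change of 0.02 and a 95% interval from -0.28 to 0.32. PLK4, the kinase of centriole duplication, had -0.38.

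Of the 5 genes of the spindle checkpoint, 1 fell. BUB1, a checkpoint kinase at the kinetochore (GRCh37 chr2:111395105-111435640), was at 93.7 and 87.2 CPM in the controls and 69.4 and 49.5 with USP47 shRNA. The USP47 shRNA libraries were lower than both controls but far apart from each other, and the log2 fold change was -0.60 ± 0.16 (adjusted p = 0.032). BUB3, which carries BUB1 and BUBR1 to the kinetochore, was at 81.6 and 78.9 CPM against 86.0 and 79.3, with overlapping groups and a log2 fold change of 0.04. BUB1B, which encodes BUBR1, had -0.33, the inhibitor MAD2L1 -0.36 and the kinase TTK -0.36, none past the test.

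None of the 4 genes of the chromosomal passenger complex, which corrects wrong attachments, passed the test. AURKB, its kinase, was at 82.4 and 90.9 CPM in the controls and 70.8 and 73.2 with USP47 shRNA, without overlap (log2 fold change -0.27, adjusted p = 0.17). CDCA8, which encodes borealin, was at 84.4 and 93.2 CPM against 97.1 and 103.7, on the opposite side of the controls (log2 fold change 0.18, 95% interval from -0.11 to 0.46). BIRC5, the survivin gene, had -0.18 and INCENP, the scaffold, 0.09.

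Of the 8 kinetochore genes, 1 fell and all 8 had a fitted change below 0. CENPA, the histone variant that marks the centromere (GRCh37 chr2:26987157-27023935), was at 24.7 and 26.3 CPM in the controls and 17.2 and 16.8 with USP47 shRNA. Its USP47 shRNA libraries were almost equal (log2 fold change -0.58 ± 0.14, adjusted p = 0.018), and its GC content was 47.2%. CENPE had the same size of change, -0.60, but with an SE of 0.34 and a 95% interval from -1.34 to 0.15 it did not pass. SPC24, with the highest TPM of the group, was at 109.5 and 123.1 CPM against 104.1 and 111.9, overlapping (log2 fold change -0.11). In the NDC80 complex, which grips the microtubule, values were -0.01 for NDC80, -0.34 for NUF2 and -0.44 for SPC25. KNL1, the landing pad of the checkpoint, had -0.52 and CENPF -0.51.

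None of the 4 genes of mitotic exit passed. ESPL1, which encodes separase, was at 141.0 and 146.4 CPM in the controls and 114.1 and 110.1 with USP47 shRNA, without overlap (log2 fold change -0.36, adjusted p = 0.075). CDC20 was at 189 and 213 CPM against 209 and 235, with overlapping groups (log2 fold change 0.14, 95% interval from -0.16 to 0.45). PTTG1, the securin that holds separase, had -0.26 and UBE2C, a ubiquitin-conjugating enzyme of the anaphase-promoting complex, -0.22, both with all USP47 shRNA values below the controls.

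The kinesins, the largest group, held the most calls, with 3 of 10 lower. This share of 30% was close to the 28.6% of the entry genes. KIF23, the motor of the central spindle (GRCh37 chr15:69706585-69740766), had the largest fall of all 60 members: 70.4 and 61.3 CPM in the controls and 47.2 and 30.7 with USP47 shRNA (log2 fold change -0.75 ± 0.19, adjusted p = 0.024). KIF18B, which shortens astral microtubules (GRCh37 chr17:43002077-43025141), was at 118 and 121 CPM against 87.5 and 82.5 (-0.49 ± 0.12, adjusted p = 0.025). KIF20A, needed for cytokinesis (GRCh37 chr5:137514408-137523412), was at 114 and 119 CPM against 90.9 and 83.2 (-0.42 ± 0.13, adjusted p = 0.046). In KIF18B and KIF20A the libraries of each group lay close together, whereas in KIF23 USP47 shRNA replicate 2 was clearly the lower. KIFC1, a minus-end motor that bundles spindle poles and had the highest TPM of the group, was at 86.8 and 95.7 CPM against 86.3 and 85.7 (-0.09). KIF14 had -0.71 with USP47 shRNA levels of 78.8 and 42.8 CPM below controls at 109.0 and 90.4 (adjusted p = 0.064). The others had -0.28 for KIF11, the motor that pushes the spindle poles apart, -0.44 for KIF18A, -0.37 for KIF20B, -0.13 for KIF2C and 0.06 for KIF4A, which has a near-identical copy, KIF4B, with 20 to 57 counts.

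None of the 4 genes of cytokinesis passed. ANLN, the anillin of the contractile ring, was at 192 and 177 CPM in the controls and 172 and 112 with USP47 shRNA, with replicate 2 far below the rest (log2 fold change -0.37, adjusted p = 0.20). RACGAP1, the partner of KIF23 in centralspindlin, was at 128.8 and 131.4 CPM against 146.0 and 129.1, overlapping (0.08). ECT2, which activates RhoA at the cell equator, had -0.37 and PRC1, which bundles the central spindle, -0.14. For PRC1, 34.3% of exon bases are shared with an antisense gene, PRC1-AS1.

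Of the 6 genes of chromosome condensation, 1 fell. NCAPH, a condensin I subunit (GRCh37 chr2:97001504-97042829), was at 51.8 and 51.3 CPM in the controls and 37.4 and 36.2 with USP47 shRNA, with both pairs of libraries close together (log2 fold change -0.48 ± 0.12, adjusted p = 0.026). NCAPD2, another subunit of the same condensin, was at 359 and 371 CPM in the controls and 434 and 457 with USP47 shRNA, above both controls in both libraries (0.29, 95% interval from -0.01 to 0.58, adjusted p = 0.17). TOP2A, the topoisomerase that untangles sister chromatids, was at 528 and 435 CPM against 366 and 216 (-0.72 ± 0.22), just outside the threshold at adjusted p = 0.0504. NCAPG had -0.19, and the core subunits SMC2 and SMC4 -0.31 and -0.22, with USP47 shRNA replicate 1 within or above the controls. Exon bases are shared with genes on the other strand for 33.7% of NCAPG and 22% of SMC4.

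Of the 5 spindle-associated genes, 1 fell. NUSAP1, which bundles microtubules near chromosomes (GRCh37 chr15:41612992-41673248), was at 126 and 110 CPM in the controls and 83.2 and 65.6 with USP47 shRNA (log2 fold change -0.66 ± 0.15, adjusted p = 0.016), and the annotation gives 3133 of its 3608 exon bases also to genes on the same strand, OIP5-AS1 among them. The remaining genes had values from -0.54 to -0.39, with -0.54 for HMMR, -0.39 for DLGAP5, -0.48 for CKAP2L and -0.52 for ASPM, and wide spreads between the USP47 shRNA libraries. ASPM, which focuses spindle poles, was at 305 and 244 CPM in the controls and 262 and 119 with USP47 shRNA.

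None of the 3 regulators and markers passed. MYBL2, a transcription factor of the complex that binds CHR elements, was at 149 and 163 CPM in the controls and 144 and 157 with USP47 shRNA, overlapping (log2 fold change -0.05, 95% interval from -0.34 to 0.23). FOXM1, the transcription factor that joins that complex in G2, had -0.07. MKI67, which encodes the proliferation marker Ki-67, was at 522 and 425 CPM against 512 and 298 (-0.22, 95% interval from -0.73 to 0.28). In MKI67 only USP47 shRNA replicate 2 lay below both controls.

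**Figure D4:**
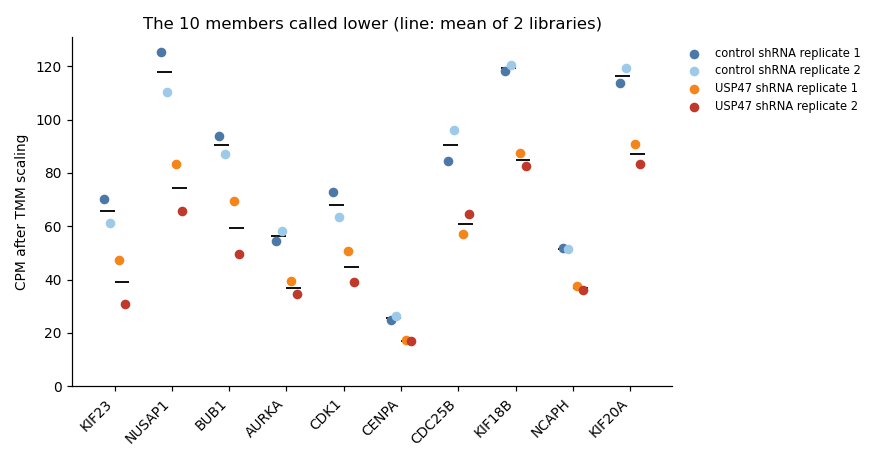
CPM after TMM scaling (y axis, from 0) of the 10 members that fell, with 1 point per library and lines for the mean of the 2 libraries of each group. The groups do not overlap in any of the 10 genes, and the libraries of a group lie close together in NCAPH and CENPA and farther apart in KIF23, NUSAP1 and BUB1.

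The 40 members with a CHR word had a median log2 fold change of -0.36 with 6 called, and the 11 without had -0.26 with 3 called (CDC25B, KIF20A and NCAPH). The 39 with CCAAT had -0.36 with 8 called, and the 12 without had -0.32 with 1 called. BUB1 and PLK1, printed above, both carry a CHR word and a CCAAT box in that stretch, with log2 fold changes of -0.60 and 0.02. Only 4 members held an E2F word, CDC25B, CENPA, NUSAP1 and SPC25, of which 3 were called, with a median of -0.58. Of the 47 without, 6 were called, with a median of -0.33. The share that fell among all genes with each word was not counted, and none of these differences was tested. No promoter was found for AURKA, BIRC5, BUB3, FOXM1, KNL1, RACGAP1, TPX2, TTK and UBE2C.

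Another 120 genes of mitosis, all tested, were set beside the members. They comprise the anaphase-promoting complex and its partners, cohesin, condensin II, further kinetochore and centromere proteins, entry controls, centrosome proteins and the DREAM complex. Of these, 6 fell and 6 rose (5% each way, against 9.56% lower and 6.52% higher of all genes tested), with a median of -0.06. Among the genes that passed the test, the largest falls were in ARPP19, an inhibitor of the phosphatase that opposes CDK1 (86.3 and 87.0 CPM in the controls, 57.5 and 52.7 with USP47 shRNA, log2 fold change -0.65), CENPI (-0.58), NSL1 (-0.58) and WEE1, the kinase that restrains CDK1 (-0.51). Among those that rose, the largest values were in ANAPC15 (0.76), NUMA1 (0.59), MAD2L1BP, whose product silences the checkpoint (0.51), and PMF1 (0.49). Of the 17 genes of the anaphase-promoting complex and its partners FZR1, FBXO5 and UBE2S, 2 rose (ANAPC5 and ANAPC15) and 0 fell, while the 14 cohesin genes had no call and a median of -0.11. The difference between the members and these genes was not tested.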

How the data were processed

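RNA-Seq of HGC-27 cells comprised 2 control shRNA and 2 USP47 shRNA libraries, grouped by the labels. The authors trimmed bases under quality 20, mapped reads with STAR 2.7.5c to hg19 and removed duplicates with SAMtools 1.9. Per the labels' processing notes featureCounts and DESeq2 1.26.0 were also used. Removing duplicates without molecular identifiers can compress the counts of abundant genes. For each library the authors deposited raw counts per gene, together with FPKM and TPM values. Annotation and strand setting are not given in the sources used here. The kit in the labels is stranded, and the methods name another kit. FPKM was not used for any value, and TPM served only to compare levels between genes.

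Counts were tested with edgeR 4.0.16 in R 4.3.3 (TMM, filterByExpr, robust quasi-likelihood fit, two-sided, Benjamini-Hochberg over 21932 genes). SE is the absolute log2 fold change over the square root of F. Levels of single libraries are CPM after TMM scaling, and log2 ratios of single libraries used CPM + 0.5. Members and lists were chosen with earlier results of these data known. Values in every library were given for USP47, each called member, and in each role group the members with the highest TPM and the largest change. From the other lists up to 4 genes per direction were named. ASPM, KIF14 and the genes whose values illustrate another point were added after their values were seen. Alternatives covered the test (DESeq2 1.42.0), scaling, filters, the replicate block, each library left out and the GC trend. Positions are from GRCh37, promoters from RefSeq. Proteins were not analysed here. The fit was tested on simulated data.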

Additional observations from a re-analysis of the deposited data

How the results depend on the processing

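The 10 falling members remained below 0 under every alternative listed in the methods. Their USP47 shRNA libraries all lay below both controls, so this sign was largely set beforehand. DESeq2 called 10 members lower (9 shared, KIF20A lost and TOP2A gained), with 2.83% of all genes lower. DESeq2 size factors gave 9 members, with 9.04% of all genes lower. Library size alone gave 8 (BUB1, CDK1 and KIF23 lost, ESPL1 gained), with 8.75% of all genes lower. In the main fit 9.56% of all genes were lower. Under library size alone, 2 other mitosis genes rose (4.02% of all genes did), and with no filter 3 did (2.43% of all genes). BUB3 changed sign to -0.022 with library size alone. Over all genes, library size alone gave 1919 lower and 881 higher calls, against 2097 and 1430 with TMM. DESeq2, fitted to 41439 genes without the filter on low counts, gave 2288 calls, against 2893 for edgeR without that filter and 3527 with it.

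With each library left out in turn, 0 to 39 members fell and 0 to 1 rose. Among other mitosis genes 0 to 45 fell and 0 to 17 rose, and among replication genes 1 to 13 fell and 0 to 2 rose. These fits called 1230 to 7270 genes in all. Relative to the fit with all libraries, 2 to 9 of the 60 members changed sign in a given fit, 9 of them without USP47 shRNA replicate 2. Among the members described with values in every library, 4 did so in at least 1 fit, with ranges of -0.11 to 0.014 for MYBL2, -0.0080 to 0.11 for BUB3, -0.0024 to 0.17 for RACGAP1 and -0.66 to 0.12 for MKI67. The cause was not tested.

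Replicate numbers are shared by the groups, but no source says that they mark a batch. The deviations of replicate 1 correlated between groups with r = 0.21 over all genes tested and 0.90 over the members. With the replicate block 38 members fell and 1 rose (NCAPD2), 29 other mitosis genes fell and 14 rose, 9 replication genes fell, and 17.7% of all genes were called lower and 16.1% higher (7422 in all). With the GC trend of each library removed 18 members fell, 14 other mitosis genes fell and 11 rose, and 5 replication genes fell, against 13.0% of all genes lower and 11.7% higher. With both, the replicate block gave 37 members lower and 1 higher, 29 other mitosis genes lower and 18 higher, and 11 replication genes lower, against 18.4% of all genes lower and 17.4% higher. The GC fits were chosen after seeing the data.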

Other observations

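Genes of the other cell cycle phases were set beside the mitotic ones. Of 41 DNA replication genes tested, 3 fell (7.32%, against 9.56% of all genes tested) and 0 rose (against 6.52%). Their median log2 fold change was -0.10. GINS1, a subunit of the replicative helicase, was at 36.4 and 40.4 CPM in the controls and 17.6 and 16.6 with USP47 shRNA (log2 fold change -1.16 ± 0.14). ORC1, which marks replication origins, had -0.62 and PRIM1, a primase subunit, -0.57. The GINS1 libraries of each group lay close together.

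Of 19 genes of G1, 4 rose (21.1%, against 6.52% of all genes tested) and 1 fell (5.26%, against 9.56%). CDKN1B, which encodes the CDK inhibitor p27, was at 39.5 and 39.6 CPM in the controls and 79.2 and 93.6 with USP47 shRNA (1.13 ± 0.13). CCNE1, the cyclin that drives S phase entry, was at 7.37 and 8.0 CPM against 15.8 and 19.0 (1.17 ± 0.16). CDK4 had 0.52 and CCND1 0.50, while CDK2, the partner of cyclin E, was at 61.5 and 66.9 CPM against 41.8 and 41.8 (-0.62 ± 0.13). In each of these genes both USP47 shRNA libraries lay on the same side of both controls.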
